A study of Mus musculus with 24 samples.

Results

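Adherens junctions hold neighbouring cells together through classical cadherins, whose outer parts bind the same cadherin on the next cell and whose tails bind catenins. β-Catenin and p120 catenin sit on the tail, and α-catenin links β-catenin to actin and recruits vinculin when the junction is under tension. In skin, E-cadherin is found throughout the living epidermis, P-cadherin in basal cells and hair follicles, and N-cadherin and cadherin-11 mainly in cells of the dermis and nerves. The 8 genes described here encode these proteins: Cdh1 (E-cadherin), Cdh3 (P-cadherin), Cdh2 (N-cadherin), Cdh11 (cadherin-11), Ctnnb1 (β-catenin), Ctnna1 (αE-catenin), Ctnnd1 (p120 catenin) and Vcl (vinculin). They were chosen by name, as the adherens junction cadherins and catenins, from 54087 gene symbols with RNA-Seq counts, and all 8 were among the 16648 genes with enough counts to be tested.

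The dorsal skin was taken from late fetal mice (E18.5) on a C57BL/6 background and flash frozen. KO embryos (Dsg1-/-) lacked the tandem Dsg1a, Dsg1b and Dsg1c genes on both copies of chromosome 18, HET embryos (Dsg1+/-) lacked them on a single copy, and WT embryos kept both. Desmoglein 1 is a desmosomal cadherin of the upper epidermis, and the study asked how its loss changes skin gene expression, junction genes included. The deletion was made with Cas9 and guide RNAs in fertilized eggs, is carried by every cell of the embryo, and removes all 3 genes together; the line goes back to a single founder, and embryos of both sexes were used. Ctnna1 and Cdh2 also lie on chromosome 18, Cdh1, Cdh3 and Cdh11 on chromosome 8, Ctnnb1 on 9, Ctnnd1 on 2 and Vcl on 14.

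Depth ranged from 8.98 M to 20.96 M counts over 24 libraries (M, mega). Libraries with the same title number and genotype were summed, which gave 16 columns: 6 WT, 5 HET and 5 KO, with 14.54 M to 33.6 M counts each. By title format the libraries form series 2, with 15 titles that begin with JK, and series 1, with the other 9. The labels do not say that each number is a separate animal, so every p-value below measures the spread between these columns. The pair of libraries titled 35 differed from each other by 15.57 in chi-square per degree of freedom, against 1.594 to 1.858 for the other 8 pairs of one number, and was kept apart as WT replicates 2 and 6. The summed Dsg1a, Dsg1b and Dsg1c level followed the labels: 793 ± 108 CPM (counts per M of scaled library total; SD, n = 6) in WT, 423 ± 52.1 in HET (n = 5) and 0.547 ± 0.341 in KO (n = 5). Each difference from WT had p = 0.00216 in a two-sided exact permutation test, the smallest that 462 arrangements can give. Keratinocyte markers were high in every column, with Krt14 at 1815 to 2953 CPM and Krt10 at 27120 to 48240 CPM.

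KO replicate 4 stood apart from the other columns. Of 8 genes known from mesothelium, the lining of the body cavities, 7 were highest there, among them Msln at 73.0 CPM against at most 4.52 elsewhere, Krt18 at 94.6 against at most 2.69, and Wt1 at 5.98 against at most 0.909. Lrrn4 was not, at 0.364 CPM against up to 0.881. Ucp1, known from brown fat, was at 1479 CPM in KO replicate 4 and at most 376 elsewhere. These genes were chosen after their values were seen. The main results are therefore also given without this column, and without both libraries of number 35.

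Levels were first compared between the genes after division by exon length, as CPM per kilobase of merged exon. In WT skin the order was Ctnnb1 at 156 ± 12.4 CPM per kilobase (SD, n = 6), Cdh1 at 54.0 ± 7.06, Ctnna1 at 41.0 ± 3.88, Cdh11 at 16.2 ± 2.43, Cdh3 at 14.4 ± 1.38, Vcl at 7.40 ± 1.40, Ctnnd1 at 5.37 ± 0.626 and Cdh2 at 0.657 ± 0.0577. The WT ranges of neighbours in this order overlapped for Cdh11 and Cdh3 (12.3 to 19.1 and 12.7 to 16.2) and for Vcl and Ctnnd1 (5.51 to 9.40 and 4.76 to 6.50), and not for the others. E-cadherin mRNA was thus the leading classical cadherin per length, and P-cadherin mRNA was 0.269 ± 0.0358 of it in WT, 0.258 ± 0.0366 in HET and 0.250 ± 0.0483 in KO. N-cadherin mRNA was 0.0124 ± 0.00208 of E-cadherin mRNA in WT, 0.0136 ± 0.00493 in HET and 0.0120 ± 0.00462 in KO. The place of Ctnnd1 is uncertain, because 61.2% of its exon length in the GENCODE vM21 annotation is shared, on the same strand, with the read-through gene model Gm28635. Of Vcl, 25.5% lies opposite Ap3m1, and of Ctnnb1, 14.6% lies opposite Ulk4. How the authors counted such reads is not given in the sources used here.

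The start regions of 3 of the 8 genes were in the RefSeq table used here (GRCm38.p6). None of the 3 is a cadherin gene, and each region is the 250 bases before the start site of 1 transcript. Ctnnb1 and Ctnnd1 each have a further start in the table, whose region is described but not printed. Capitals mark matches to any of 5 motifs searched on both strands: CAGGTG, the E-box bound by Snail and Zeb proteins; AACCGGTT, the site of grainyhead-like factors; CTTTGA, the core of TCF sites; TATAAA; and the CArG box bound by serum response factor. The Ctnnb1 region is chr9:120933150-120933399 (plus strand), the Ctnnd1 region chr2:84658978-84659227 (minus strand) and the Vcl region chr14:20929148-20929397 (plus strand). The printed Ctnnd1 region lies upstream of the whole GENCODE vM21 gene model used for its exon length. The region of its further start overlaps the beginning of that model.
Ctnnb1: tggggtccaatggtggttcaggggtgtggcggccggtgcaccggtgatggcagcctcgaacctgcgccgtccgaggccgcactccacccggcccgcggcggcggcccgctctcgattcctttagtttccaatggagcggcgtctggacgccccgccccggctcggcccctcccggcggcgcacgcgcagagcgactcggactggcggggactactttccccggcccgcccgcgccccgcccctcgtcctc
Ctnnd1: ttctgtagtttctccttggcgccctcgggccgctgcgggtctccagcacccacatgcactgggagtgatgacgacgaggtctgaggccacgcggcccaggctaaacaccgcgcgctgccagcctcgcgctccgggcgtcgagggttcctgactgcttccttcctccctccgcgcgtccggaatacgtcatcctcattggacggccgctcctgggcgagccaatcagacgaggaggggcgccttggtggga
Vcl: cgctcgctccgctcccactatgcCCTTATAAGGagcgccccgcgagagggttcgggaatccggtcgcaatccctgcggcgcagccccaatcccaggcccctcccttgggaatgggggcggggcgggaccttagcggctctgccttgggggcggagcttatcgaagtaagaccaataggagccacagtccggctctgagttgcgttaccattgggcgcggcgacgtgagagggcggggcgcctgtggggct
The Vcl region held 1 CArG box, 227 bases before the start, and the other 2 printed regions no match to any of the 5. The regions of the further starts of Ctnnb1 and Ctnnd1 each held 1 TATAAA, 120 and 156 bases before the start. Of all 32851 such regions, 1.47% held a CArG box, 17.2% the E-box, 0.116% AACCGGTT, 13.8% CTTTGA and 12.4% TATAAA. The printed regions held 35 CG pairs in Ctnnb1, 26 in Ctnnd1 and 24 in Vcl against a median of 6 over all regions, and the regions of the further starts held 43 in Ctnnb1 and 3 in Ctnnd1. The matches are descriptions of letters and say nothing on binding.

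In KO against WT, the comparison that asks what full loss of the Dsg1 genes does, none of the 8 genes passed an adjusted p of 0.1. E-cadherin mRNA had the largest fold change, 1.29-fold (95% confidence interval 1.06 to 1.57), followed among those higher in KO by Cdh2 at 1.26-fold, Cdh3 at 1.17-fold and Ctnna1 at 1.16-fold. The KO mean was above the WT mean for 7 of the 8, with a median log2 fold change of 0.21 against -0.01 over all genes tested, of which 48.8% were higher in KO. Without KO replicate 4 it was 6 of 8 with a median of 0.16, and without both libraries of number 35 it was 7 of 8 with a median of 0.21. The test was edgeR's quasi-likelihood test with Benjamini-Hochberg adjustment over all 16648 genes, and 3 of the 8 (Cdh1, Ctnna1 and Ctnnd1) had an unadjusted p under 0.05, as had 23% of all genes. Of all genes, 4.33% were called higher and 2.85% lower in KO, and 0.829% also reached the 2-fold change that the study required. DESeq2 called 2 of the 8 (Cdh1 and Ctnna1) and 13.2% of all genes, and limma-voom 0 of the 8 and 8.04% of all genes. No member had KO values wholly above or below the WT values, where 1.39% of all genes were wholly above and 1.33% wholly below.

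**Figure D1:**
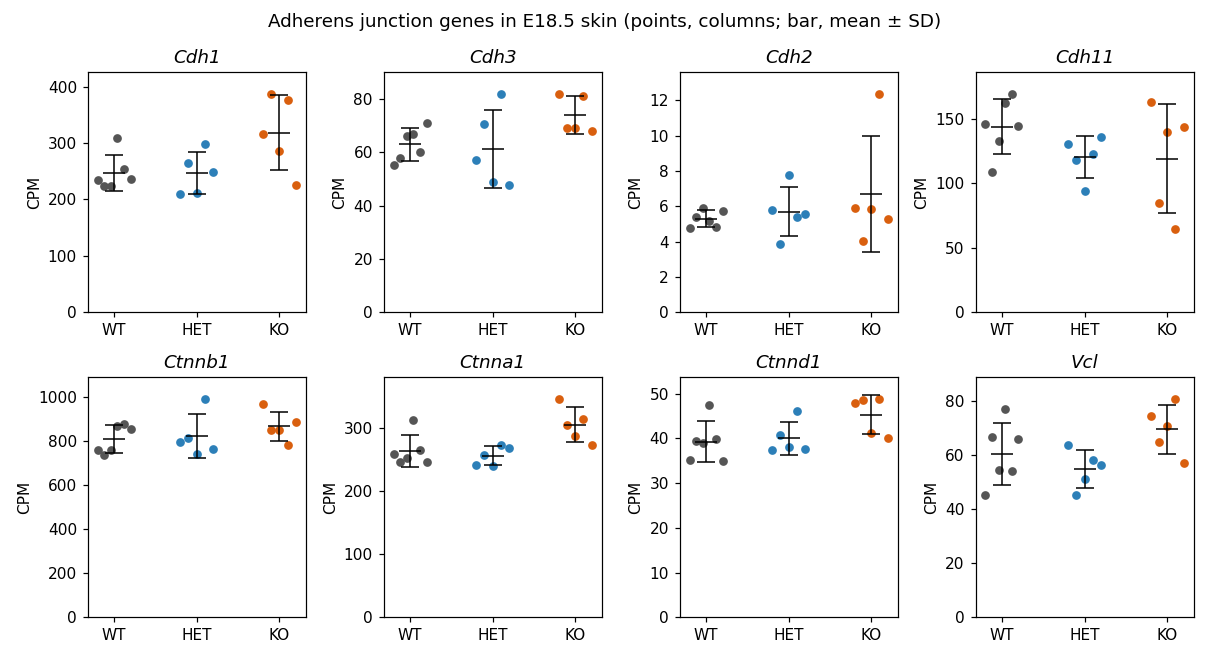
CPM of each gene (vertical axis, from 0) in every WT (grey), HET (blue) and KO (orange) column, with bars for the mean ± SD. The KO points overlap the WT points in all 8 panels, and the widest KO spread relative to the mean is that of Cdh2, where KO replicate 4 lies at 12.4 CPM.

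Cdh1, the main cadherin of keratinocytes, was at 224 to 309 CPM in WT, with a median of 235. Values in HET were 210, 265, 211, 299 and 248.5 CPM. Values in KO were 316, 388, 285, 377 and 226 CPM. Thus 3 of 5 KO columns lay above every WT column, and KO replicate 5 was near the lowest WT value. In KO against WT the log2 fold change was 0.37 ± 0.14 (SE) with an adjusted p of 0.129 in edgeR. Leaving out KO replicate 5 gave an adjusted p of 0.0369 (log2 fold change 0.47), and leaving out WT replicate 4, the highest WT column, gave 0.0574 (0.43). Without KO replicate 4 it was 0.300 (0.30), without both libraries of number 35 it was 0.360 (0.32), and within the title series it was 0.583 in series 1 (0.34) and 0.193 in series 2 (0.35). Of all genes, 721 higher and 474 lower passed with all columns. These counts became 1556 and 1215 without KO replicate 5, and 1403 and 1059 without WT replicate 4.

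Cdh1 varied with suprabasal keratinocyte genes, although not past 0.05 after adjustment. The summed level of 6 such genes (Krt1, Krt10, Lor, Ivl, Krtdap and Sbsn) was 54500 to 77940 CPM in WT, 54810 to 73130 in HET and 68720 to 101200 in KO, and KO replicate 2 was highest in both this sum and Cdh1. All 6 were higher in KO than in WT on average, and 1 of them (Ivl) passed the test in edgeR. Across the 16 columns with genotype means removed, Cdh1 and this sum had Pearson's r = 0.74 and Spearman's ρ = 0.74, with permutation p = 0.00231 and 0.00229. Adjusted over the 96 pairs of a member and a marker list these were 0.0739 and 0.0684, and r was 0.70 without the 2 columns farthest from the median of Cdh1. Ctnnd1 and the same sum had r = 0.74 and ρ = 0.77 (adjusted permutation p = 0.0715 and 0.0538). Cdh1 and the summed skeletal muscle markers had r = -0.74 and ρ = -0.74 (adjusted permutation p = 0.105 and 0.0684), and with the skeletal muscle score as a covariate its log2 fold change was 0.26 (adjusted p = 0.155). Summed basal keratinocyte markers overlapped between genotypes, at 6308 to 7041 CPM in WT and 6290 to 7707 in KO; 5 of 6 were higher in KO on average, with 1 passing in edgeR and 2 in DESeq2. In these bulk samples, fewer or more cells of a type and less or more RNA per cell cannot be told apart, and the part of suprabasal or basal keratinocytes in the Cdh1 difference was not tested.

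Cdh3, the cadherin of basal cells and hair placodes, was at 55.5 to 71.2 CPM in WT, with a median of 63.2. The HET columns were at 57.3, 70.7, 48.8, 82.0 and 47.96 CPM, the widest spread of the 3 genotypes. The KO columns were at 82.1, 69.1, 69.1, 81.4 and 68.1 CPM, and 2 of 5 lay above all WT columns. The log2 fold change in KO against WT was 0.23 ± 0.12 (SE; adjusted p = 0.269, edgeR), 0.20 without KO replicate 4 and 0.25 without both libraries of number 35.

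Cdh2, the N-cadherin gene, was the lowest of the 8 and was at 4.76 to 5.89 CPM in WT, with a median of 5.28. In HET the values were 5.80, 3.85, 7.75, 5.41 and 5.59 CPM. In KO they were 5.89, 4.01, 5.87, 12.4 and 5.27 CPM, so that 1 column, KO replicate 4, was far above the rest. The log2 fold change of 0.33 ± 0.23 (SE; adjusted p = 0.397, edgeR) became -0.01 without KO replicate 4 (adjusted p = 0.986) and 0.36 without both libraries of number 35 (0.515). In series 1 alone, which has no library of KO replicate 4, it was -0.19 (adjusted p = 0.857). The summed level of the 8 mesothelial genes was 450 CPM in KO replicate 4 and 7.48 to 24.8 CPM in all other columns. The adipocyte markers were also highest there, at 4874 CPM, and next highest in HET replicate 3, at 3608 CPM, which was next highest in Cdh2 too. KO replicate 2 followed in adipocyte markers, at 1372 CPM, with a Cdh2 of 4.01 CPM. Each column held 83 to 238 Cdh2 counts, so counting error is a sizeable part of its spread. With the fibroblast score as a covariate the log2 fold change was 0.07 (adjusted p = 0.911). With genotype means removed, Cdh2 and the summed dermal fibroblast markers had r = -0.32 over 16 columns, and 0.32 without KO replicate 4. The part of mesothelial cells, adipocytes or fibroblasts in the Cdh2 values was not tested.

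Cdh11, a cadherin of mesenchymal cells, was the single member lower in KO than in WT. The WT columns were at 109 to 170 CPM, with a median of 145. HET skin gave 131, 118, 94.5, 123 and 136 CPM. KO skin gave 163, 84.6, 140, 64.7 and 144 CPM. KO replicates 2 and 4 lay below all WT columns, and the other 3 KO columns inside the WT range. Against WT the log2 fold change was -0.27 ± 0.20 (SE; adjusted p = 0.409, edgeR), -0.12 without KO replicate 4 (adjusted p = 0.749) and -0.36 without both libraries of number 35 (0.439). Dermal fibroblast markers (Col1a1, Col1a2, Col3a1, Pdgfra, Dcn, Lum and Twist2) summed to 22010 to 36640 CPM in WT, 20040 to 32260 in HET and 14880 to 29430 in KO, with KO replicate 4 the lowest column in this sum as in Cdh11. All 7 were lower in KO on average and none passed the test in edgeR, with 1 at an unadjusted p under 0.05 and 1 called by DESeq2. Across the 16 columns with genotype means removed, Cdh11 had r = 0.65 and ρ = 0.59 with this sum (adjusted permutation p = 0.184 and 0.255) and r = -0.82 and ρ = -0.74 with the adipocyte sum (0.0715 and 0.154). Without the 2 columns farthest from the Cdh11 median these r were 0.35 and -0.68, and without KO replicate 4 they were 0.41 and -0.69. With the fibroblast score as a covariate the log2 fold change of Cdh11 was 0.00 (adjusted p = 0.995). That score comes from the same columns. The part of dermal fibroblasts or adipocytes in the Cdh11 values was not tested.

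**Figure D2:**
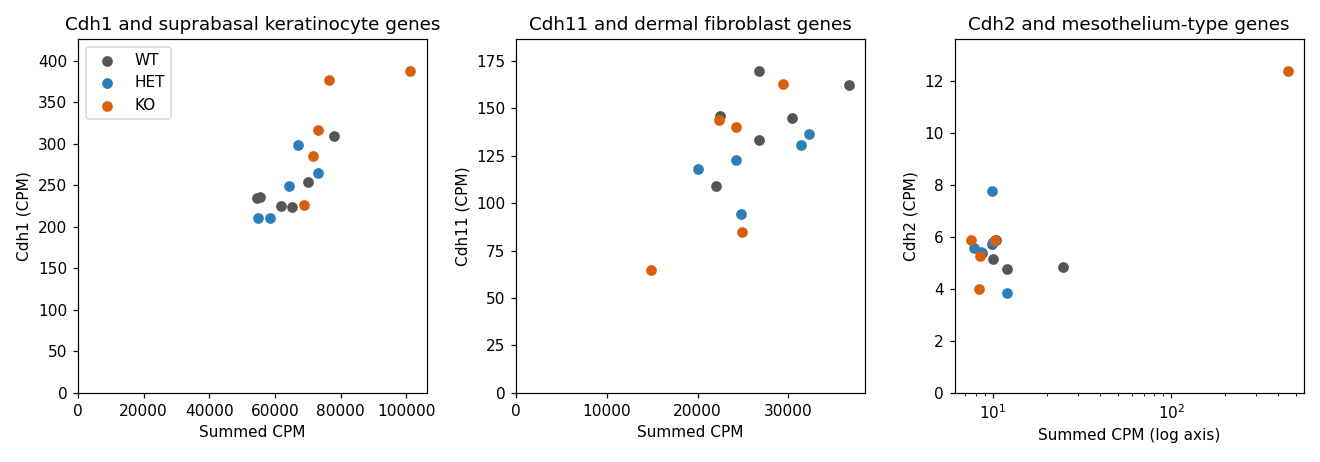
Each point is 1 of 16 columns, WT grey, HET blue and KO orange. CPM of Cdh1, Cdh11 and Cdh2 (vertical axes, from 0) is set against the summed CPM of suprabasal keratinocyte, dermal fibroblast and mesothelium-type genes (horizontal axes, the last one on a log scale). KO replicate 4 is the point at 14880 CPM of fibroblast genes in the middle panel and at 450 CPM of mesothelium-type genes in the right panel.

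Ctnnb1, whose product both anchors cadherins and carries Wnt signals, was at 736 to 880 CPM in WT, with a median of 808. The HET columns were at 798, 815, 744, 991 and 765 CPM and the KO columns at 967, 849, 849, 781 and 888 CPM, with wide overlap. KO against WT gave a log2 fold change of 0.10 ± 0.09 (SE; 95% confidence interval -0.09 to 0.28; adjusted p = 0.525, edgeR). Without KO replicate 4 it was 0.13 (adjusted p = 0.507), and without both libraries of number 35 it was 0.08 (0.707). A rise above 1.22-fold or a fall below 0.939-fold lay outside the interval over all columns. With genotype means removed, Ctnnb1 and the summed adipocyte markers had r = -0.72 and ρ = -0.83 over 16 columns (adjusted permutation p = 0.131 and 0.0125), and r was -0.72 without the 2 columns farthest from the Ctnnb1 median.

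Ctnna1, whose product connects the complex to actin, was at 246 to 312 CPM in WT, with a median of 256. The HET columns were at 240, 257, 240, 273 and 268 CPM. The KO columns were at 345, 305, 287, 314 and 273 CPM. WT replicate 4 at 312 CPM was the sole WT column above 265, and 2 of 5 KO columns exceeded it. The log2 fold change in KO against WT was 0.21 ± 0.08 (SE; adjusted p = 0.136, edgeR). It passed at an adjusted p of 0.0414 without WT replicate 4 and at 0.0688 without KO replicate 5. More of all genes passed in these fits too, as given for Cdh1. Without KO replicate 4 the adjusted p was 0.273, and without both libraries of number 35 it was 0.402.

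Ctnnd1, whose product keeps cadherins at the cell surface, was at 34.8 to 47.5 CPM in WT, with a median of 39.2. The HET columns were at 37.4, 40.7, 38.1, 46.1 and 37.6 CPM, and the KO columns at 47.9, 48.6, 41.1, 48.8 and 40.1 CPM. As for Cdh1 and Ctnna1, WT replicate 4 was the highest WT column, and 3 of 5 KO columns lay above it. The log2 fold change in KO against WT was 0.20 ± 0.09 (SE; adjusted p = 0.191, edgeR), with an adjusted p of 0.0645 without WT replicate 4, 0.373 without KO replicate 4 and 0.442 without both libraries of number 35. More of all genes passed without WT replicate 4 too, as given for Cdh1.

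Vcl, which binds α-catenin and talin and strengthens junctions and focal adhesions under load, was at 45.1 to 77.0 CPM in WT, with a median of 60.3. The HET columns were at 63.7, 45.5, 51.3, 58.2 and 56.4 CPM and the KO columns at 74.5, 64.8, 70.9, 80.9 and 57.0 CPM. KO replicate 4 lay above the WT range and no KO column below it. Smooth muscle markers were highest in that column too, at 459 CPM against 148 to 316 CPM elsewhere. Across the 16 columns with genotype means removed, Vcl and this sum had r = 0.24 (adjusted permutation p = 0.696). Without KO replicate 4, r was 0.02. The part of smooth muscle in the Vcl values was not tested. KO and WT differed by 0.20 ± 0.13 on the log2 scale (SE; adjusted p = 0.348, edgeR), by 0.14 without KO replicate 4 (0.620) and by 0.27 without both libraries of number 35 (0.387). It was 0.05 in series 1 alone (0.940) and 0.12 without WT replicate 1 (0.574).

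In HET against WT, which asks what loss of a single copy does, the members were close to WT. No member passed in edgeR, none had an unadjusted p under 0.05, and DESeq2 and limma-voom called 0. Of all genes tested, 0.00601% (1 gene) was called in edgeR and 0.00601% in limma-voom, 0.018% in DESeq2, and 1.8% had an unadjusted p under 0.05. The median log2 fold change of the 8 was -0.02, against 0.00 over all genes, and 3 of 8 were higher in HET. Cdh11 had the largest difference, at -0.26 ± 0.20 (SE; 95% confidence interval -0.67 to 0.15; adjusted p = 1.0 in edgeR). Cdh1 was at 0.00 with an interval of -0.29 to 0.28, and Ctnna1 at -0.04 with an interval of -0.21 to 0.12, so that changes of Ctnna1 beyond 0.864-fold and 1.09-fold lay outside its interval. Vcl was at -0.14 (-0.41 to 0.13), Cdh3 at -0.04 (-0.30 to 0.22), Cdh2 at 0.10 (-0.39 to 0.59), Ctnnb1 at 0.02 (-0.17 to 0.21) and Ctnnd1 at 0.02 (-0.17 to 0.21). Without both libraries of number 35, Cdh11 was at -0.34 and Vcl at -0.07, and every adjusted p was 1.0.

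In KO against HET, no member passed either, where 0.252% of all genes were called higher and 0.258% lower. Unadjusted p-values were under 0.05 for 3 members (Cdh1, Ctnna1 and Vcl) in edgeR, as for 16.8% of all genes. DESeq2 called 1 (Ctnna1) and 5.45% of all genes, and limma-voom 0 and 1.14% of all genes. Ctnna1 had the smallest adjusted p, 0.164, and differed by 0.25 ± 0.08 (SE) on the log2 scale, and 4 of 5 KO columns lay above all HET columns. For Vcl the same was true of 4 of 5 columns, and the difference was 0.34 ± 0.13 (SE; adjusted p = 0.216, edgeR). Cdh1 was at 0.37 ± 0.14 (SE; adjusted p = 0.211, edgeR), and leaving out KO replicate 5 took it to an adjusted p of 0.0653 and Ctnna1 to 0.0765. That fit also called 617 of all genes higher and 491 lower, where the fit with all columns called 42 and 43. Leaving out KO replicate 4 took Cdh1 to 0.385 (log2 fold change 0.30), Ctnna1 to 0.299 (0.24), Vcl to 0.390 (0.28) and Cdh2 to 0.802 (-0.11), and leaving out both libraries of number 35 gave 0.285, 0.226, 0.285 and 0.707. The other log2 fold changes were 0.27 for Cdh3, 0.23 for Cdh2, 0.18 for Ctnnd1, 0.08 for Ctnnb1 and -0.01 for Cdh11. KO against WT and KO against HET share the KO columns.

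**Figure D3:**
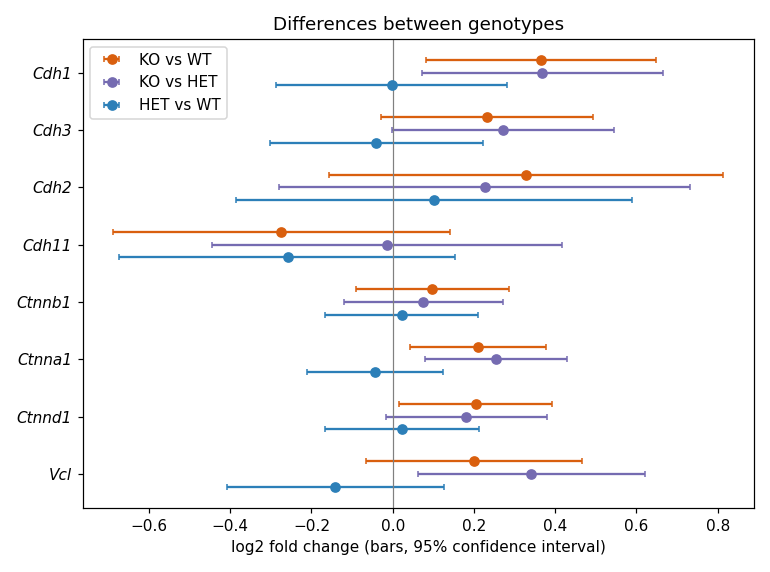
log2 fold change (horizontal axis) with its 95% confidence interval for each gene in KO vs WT (orange), KO vs HET (purple) and HET vs WT (blue). The intervals of Cdh1 and Ctnna1 lie above 0 in both KO comparisons before adjustment for the number of genes tested, and every HET vs WT interval includes 0.

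Within genotypes, Cdh1, Ctnna1 and Ctnnd1 varied together from column to column. With genotype means removed from log2(CPM + 0.5), Cdh1 and Ctnnd1 had Pearson's r = 0.82 and Spearman's ρ = 0.80 over 16 columns, with permutation p-values of 0.00896 and 0.0177 after adjustment over 28 pairs. Cdh1 and Ctnna1 had r = 0.76 and ρ = 0.78 (adjusted permutation p = 0.0253 and 0.0177), and Ctnna1 and Ctnnd1 r = 0.79 and ρ = 0.77 (0.0223 and 0.0177). Without the 2 columns farthest from the median of the first gene, r was 0.76, 0.62 and 0.71 in the same order, and without KO replicate 4 it was 0.81, 0.77 and 0.79. No other pair passed 0.05 after adjustment, although Cdh3 and Ctnnb1 reached r = 0.65 (0.0733). Cdh2 and Cdh11 had r = -0.48, which was 0.11 without KO replicate 4. Within a library all values share 1 total, so that such correlations also carry the composition of the skin piece.

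**Figure D4:**
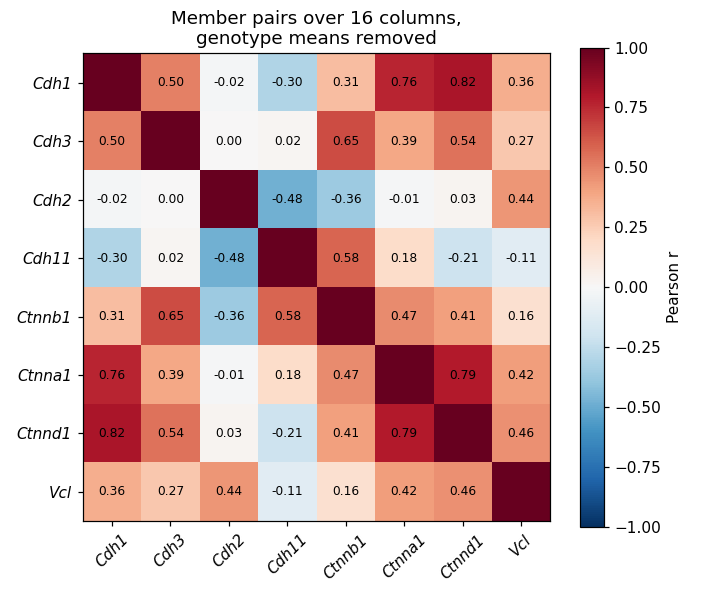
Pearson's r of each pair of the 8 genes over 16 columns after removal of genotype means, from -1 (blue) to 1 (red). Cdh1, Ctnna1 and Ctnnd1 form the block of high values (0.76 to 0.82).

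The genes whose pattern was most like that of each member, out of 12348 with a mean of at least 100 counts, were picked by r over the same 16 columns as a description. For Cdh1 these were Lmtk2, Strn and Etv3 (r = 0.95 each). For Cdh3 they were Tfap2a, a transcription factor of the epidermis, and Tulp4 (0.88 each) and Sox21, known from hair and epidermis (0.86). For Cdh2 they were Itpr1, Picalm and Ntrk3 (0.93 each). For Cdh11 they were Tmem132c (0.97), Emilin3 and the Wnt inhibitor Wif1 (0.96 each). For Ctnnb1 they were Sh3rf3 (0.94), Tnfrsf19 and Tex10 (0.93 each), for Ctnna1 Nsd3 (0.94), Map4k4 (0.93) and Eif3a (0.92), for Ctnnd1 Atp10d, Plekhg6 (0.93 each) and the epithelial sodium channel subunit Scnn1a (0.92), and for Vcl Med12 (0.93), Akap13 and Ubr2 (0.92 each).

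Other genes of the junction and of its control were taken from lists, each counted in KO against WT beside the 4.33% of all genes called higher and 2.85% called lower in edgeR (13.2% called in DESeq2 and 23% at an unadjusted p under 0.05). Scaled by total counts, 1 of the nectin list rose in place of 2, 4 of the desmosome list in place of 6, 2 of the epithelial regulators in place of 4, and none of the vinculin partners or TCF targets in place of 1 each. Of 16 nectins and other adherens junction parts, 2 rose and none fell, with a median log2 fold change of 0.15. Nectin1, an adhesion receptor that starts junctions, went from 57.9 ± 11.1 CPM (SD, n = 6) to 80.9 ± 13.4 (n = 5; log2 fold change 0.48 ± 0.14 SE, adjusted p = 0.0790, edgeR). Mllt4, the older symbol of Afdn, which ties nectins to actin, went from 96.6 ± 10.1 to 132 ± 23.99 CPM (0.45 ± 0.10 SE, adjusted p = 0.0467, edgeR). Neither passed without KO replicate 4 (adjusted p = 0.182 for Nectin1 and 0.125 for Mllt4) or without both libraries of number 35 (0.251 and 0.219).

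Of 18 other cadherins 13 had enough counts to be tested, and 1 fell and none rose, with a median of -0.29. The one that fell was Cdh7, a cadherin known from neural crest derivatives, from 1.89 ± 0.622 to 0.876 ± 0.405 CPM (log2 fold change -1.09 ± 0.34 SE, adjusted p = 0.0890, edgeR), on 6 to 73 counts a column. It did not pass without KO replicate 4 (adjusted p = 0.198) or without both libraries of number 35 (0.249). Schwann cell markers overlapped between KO and WT, at 135 to 181 and 121 to 200 CPM.

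Of 14 desmosome genes, the neighbouring junction to which Dsg1 belongs, 6 rose and none fell, with a median of 0.46. Dsg3, the desmoglein of basal cells, went from 24.9 ± 3.11 CPM in WT to 47.5 ± 11.8 in HET and 123 ± 31.5 in KO, which in KO was 2.30 ± 0.18 on the log2 scale (SE; adjusted p = 1.65e-06, edgeR). Dsc1, the desmocollin of the upper epidermis, went from 947 ± 217 to 1500 ± 218 CPM (0.66 ± 0.14 SE, adjusted p = 0.0404, edgeR). Dsg4 (1.66, adjusted p = 0.0543) and Dsg2 (0.65, adjusted p = 0.0582) rose as well in edgeR. Without KO replicate 4, 2 of the 14 passed, without both libraries of number 35, 1 did, and Dsg3 was among them in each case (adjusted p = 6.86e-06 and 0.000130). The study discussed desmosome genes from data that include these libraries, so this list is not independent evidence of its direction. All 8 members had smaller log2 fold changes than Dsg3, Dsg4, Dsc1 and Dsg2, which were named because they had the smallest adjusted p. For Dsg4, the study proposes as plausible that the deletion moves a p63 enhancer near the gene, which may affect its level. That was not tested here. Of the other desmosome genes, Dsp, Dsc2, Ppl, Jup and Pkp1 had log2 fold changes above that of Cdh1 (0.366). Those of Evpl, Dsc3, Pkp3, Perp and Pkp2 were below it. These differences were not tested.

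Of 15 vinculin partners and focal adhesion genes 1 rose, Fermt1, the kindlin of epithelia, from 22.05 ± 1.42 to 28.8 ± 3.42 CPM (log2 fold change 0.39 ± 0.12 SE, adjusted p = 0.0945, edgeR), and the median was 0.02. Of 7 parts of the complex that degrades β-catenin 1 rose, the kinase Gsk3b, from 76.6 ± 10.2 to 99.3 ± 15.4 CPM (0.37 ± 0.10 SE, adjusted p = 0.0660, edgeR), and the median was 0.15. Of 15 targets of β-catenin and TCF 1 rose, Znrf3, which removes Wnt receptors, from 33.7 ± 4.39 to 43.2 ± 3.20 CPM (0.36 ± 0.11 SE, adjusted p = 0.0805, edgeR). The median of these targets was -0.05, and Axin2 and Lef1, often used as readouts of Wnt signalling, had log2 fold changes of 0.17 and 0.06 that did not pass. None of Fermt1, Gsk3b and Znrf3 passed without KO replicate 4 (adjusted p = 0.153, 0.179 and 0.168) or without both libraries of number 35 (0.278, 0.235 and 0.244).

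Transcription factors that repress Cdh1 and those that maintain epithelial genes had medians of opposite sign. Of 7 repressors (Snai1, Snai2, Zeb1, Zeb2, Twist1, Twist2 and Tcf3) none passed in edgeR, 4 had an unadjusted p under 0.05 and DESeq2 called 2; the median was -0.26, and Snai2 alone was higher in KO. The 2 most abundant were Tcf3, at 185 ± 8.49 CPM in WT and 170 ± 19.6 in KO (log2 fold change -0.12, adjusted p = 0.370 in edgeR), and Zeb2, at 129 ± 9.73 and 107 ± 17.2 CPM (-0.26, adjusted p = 0.137 in edgeR). Twist2 is also on the fibroblast list, whose sum was lowest in KO replicate 4. Of 9 epithelial regulators 4 rose and none fell, with a median of 0.40. Grhl3, a grainyhead-like factor of the epidermal barrier, went from 54.1 ± 4.39 to 92.5 ± 17.8 CPM (0.77 ± 0.12 SE, adjusted p = 0.00811, edgeR) and was higher than all WT columns in 5 of 5 KO columns. Ovol1, a repressor of mesenchymal genes (0.50, adjusted p = 0.0543), the splicing factor Esrp1 (0.48, adjusted p = 0.0802) and Grhl1 (0.40, adjusted p = 0.0888) also rose in edgeR. Grhl3 alone of these passed without KO replicate 4 (adjusted p = 0.0242) and without both libraries of number 35 (0.0728).

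Genes that act on cadherins after translation, and targets of YAP and TAZ, which report on tension, came last. Of 5 turnover genes none passed in edgeR and none had an unadjusted p under 0.05, nor did DESeq2 call any, with a median of 0.09. Adam10, the protease that sheds E- and N-cadherin, was at 157 ± 8.85 CPM in WT and 167 ± 8.81 in KO (log2 fold change 0.09, 95% confidence interval -0.04 to 0.23). Of 6 targets of YAP and TAZ none passed in edgeR, 1 had an unadjusted p under 0.05 and DESeq2 called 0, with a median of 0.13. Axl was at 145 ± 31.6 and 154 ± 31.9 CPM (0.08), and Ajuba, which also binds α-catenin, at 93.1 ± 3.60 and 112 ± 15.5 CPM (0.26, adjusted p = 0.164 in edgeR). In HET against WT no gene of any of these lists passed in edgeR, where 2 desmosome genes and 1 YAP and TAZ target had an unadjusted p under 0.05, and DESeq2 called 1, Dsg3.

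**Figure D5:**
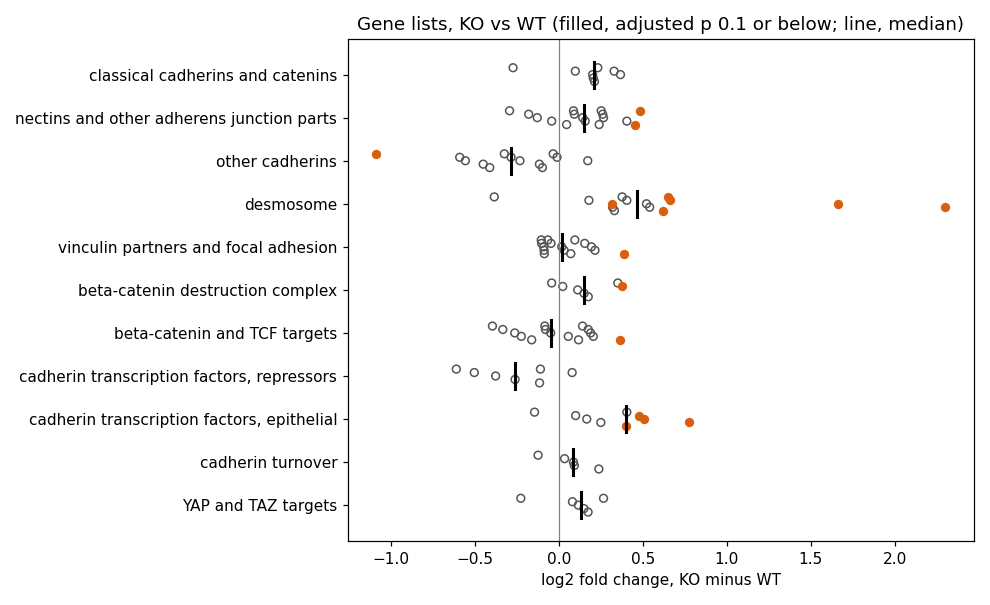
log2 fold change in KO vs WT (horizontal axis) of each tested gene in the 8-gene group and in 10 lists, filled where the adjusted p was 0.1 or below, with a line at each list's median. The classical cadherins and catenins have no filled point and a median of 0.21, the desmosome list has 6 and a median of 0.46, and the repressors have none and a median of -0.26.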

How the data were processed

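Skin RNA-Seq libraries of WT, HET and KO embryos were compared. The authors made poly(A)-selected directional libraries and deposited raw counts, whole numbers per gene symbol; the submitters' processing notes name STAR, HTSeq and the build hg19, a human build, without roles or versions, although the symbols are those of mouse. No coordinates were therefore given for genes; chromosomes, exon lengths and overlaps came from GENCODE vM21. Libraries sharing a title number and genotype were summed, giving 16 columns. Title numbers were not shared between genotypes.

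Genes were kept with filterByExpr (16648 genes, 99.9% of counts) and tested in R 4.3.3 with edgeR 4.0.16 (TMM scaling, robust quasi-likelihood test), all 3 genotypes in one fit, with Benjamini-Hochberg adjustment and a limit of 0.1, the study's own; the study's 2-fold limit was counted separately. Values are CPM on TMM-adjusted totals. Correlations used 100000 permutations within genotype. DESeq2 1.42.0, limma 3.58.1 and the other alternatives are given at the end. The scripts were tested on simulated data.

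The members and lists were chosen with earlier results of these data known. All 8 members are named. From each list up to 4 genes with the smallest adjusted p among those passing in KO against WT are named, or, if none passed, the 2 with the highest mean CPM; others named were chosen after their values were seen. Values of 1 gene so picked are left out.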

Additional observations from a re-analysis of the deposited data

Results flagged for a closer look

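In 30 groups of columns (the 8 genes, the summed Dsg1 level and the total counts, in each genotype), 4 had a highest column far from its group, meaning that its gap to the nearest column was a large share of the group's range; chance gives about 1 in 20. For Cdh2 in KO this was KO replicate 4, whose gap was 0.775 of the range. WT replicate 4 was set apart in the WT group in both Cdh1 (0.652) and Ctnna1 (0.713), and its removal took Cdh1, Ctnna1 and Ctnnd1 past the limit in KO against WT. Removal of KO replicate 5, which was not set apart, took Cdh1 and Ctnna1 past the limit as well. For Ctnnb1 the column set apart was HET replicate 4, at 0.712 of the HET range.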

How the results depend on the processing

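Of 768 values of a member in a comparison under an alternative, 724 kept their direction and their side of the limit, 15 kept their direction and passed, and 29 changed sign; the causes were not tested. The number of members passing in KO against WT, 0, became 2 with DESeq2, 2 with 24 libraries kept apart (limma-voom with a correlation within title number, number 35 apart, and title series as a covariate) and 0 to 3 when 1 column was left out. In KO against HET it became 1 with DESeq2, 3 with 24 libraries and 0 to 2 when 1 column was left out. Under all other alternatives, and in HET against WT under every one, it stayed 0. Where members passed, more of all genes were called too. In KO against WT, 721 higher and 474 lower became 1386 and 952 with 24 libraries. Without WT replicate 4 they became 1403 and 1059. In KO against HET, 42 and 43 became 522 and 386 with DESeq2 and 617 and 491 without KO replicate 5. In series 1 alone, Cdh2 turned to -0.19 in KO vs WT and -0.24 in KO vs HET, Cdh11 to 0.17 in KO vs HET, and in HET vs WT Ctnnb1 to -0.07 and Ctnnd1 to -0.05. Ctnnd1 in HET vs WT was -0.01 in series 2 alone and -0.02 without number 35, Cdh1 was 0.00 with limma-voom and 0.00 with a length offset, and Cdh11 in KO vs HET was 0.17 with the fibroblast covariate. With 1 column left out, ranges that crossed 0 were those of Cdh2 (-0.01 to 0.47 in KO vs WT, -0.11 to 0.37 in KO vs HET, -0.04 to 0.22 in HET vs WT), of Cdh11 in KO vs HET (-0.15 to 0.14) and, in HET vs WT, of Cdh1 (-0.08 to 0.07), Cdh3 (-0.17 to 0.04), Ctnnb1 (-0.06 to 0.06), Ctnna1 (-0.07 to 0.01) and Ctnnd1 (-0.04 to 0.08).

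The count of all genes passing in KO against WT depended strongly on the setting: 721 higher and 474 lower became 12 and 17 without number 35, 1 and 2 in series 1, 50 and 35 without KO replicate 4 and 1556 and 1215 without KO replicate 5, with 1344 and 846 in DESeq2. Total count scaling moved the median of all genes from -0.01 to -0.07 and turned the split to 369 higher and 592 lower; 7 of 8 members stayed higher. In KO against HET, 42 and 43 became 42 and 71 with it, and 732 and 494 with 24 libraries. No paired analysis was possible because the genotypes share no title number. The 24-library fit treats series as a covariate. Of the 15 numbers, 9 appear in both series, among them number 35, whose 2 libraries differed by 15.57 in chi-square per degree of freedom. The other 8 pairs differed by 1.594 to 1.858, so the series are not independent samples.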
